A study of Rattus norvegicus with 6 samples.

Results

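The genes described here encode the proteasome and the ubiquitin-conjugating enzymes, read for peaks of a chromatin immunoprecipitation and sequencing (ChIP-seq) experiment. They were chosen by symbol from the authors' annotated table of peaks: 39 genes whose symbol starts with Psma to Psmg followed by a digit, called proteasome genes below, and 25 whose symbol starts with Ube2. These 64 genes are part of the 14390 to which the table assigns at least 1 peak. The chromatin came from PC12, an established rat cell line grown from an adrenal tumour, at passages 18 to 20, crosslinked with 1% formaldehyde. The empty-vector line stably expressed pCDNA3, and the other line, titled Q11 in the labels, stably expressed human alpha1ACT (α1ACT below), a protein that CACNA1A mRNA encodes beside the calcium channel and that acts as a transcription factor. Each line gave 1 library precipitated with the M2 antibody, which the protocol names as anti-FLAG, 1 with an antibody labelled 1804 and 1 input. The labels say neither what 1804 recognises nor whether a line is 1 clone, and the series design text speaks of tissues at day 3 where the samples name PC12 cells. The comparisons ask where α1ACT lies on chromatin.

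The proteasome degrades proteins that carry chains of ubiquitin. Ubiquitin passes from an activating enzyme (E1) to a conjugating enzyme (E2, the Ube2 proteins) and with a ligase (E3) to the target. The barrel-shaped 20S core, made of alpha rings and catalytic beta rings, then cuts the protein that the 19S cap has bound, unfolded and fed in. In PC12 cells, proteasome inhibitors are known to trigger neurite outgrowth, and ubiquitin-marked inclusions are a common feature of polyglutamine diseases of neurons.

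Promoter sequences of 4 genes are given as examples of the CpG and motif letters counted for both groups further on. They are the 250 bases before the RefSeq start of Psma4 and Psmd3, the proteasome genes whose promoter peaks had the highest signal, of Ube2q1, the same among Ube2 genes, and of Ube2g2, whose highest peak lay 104 bp upstream. By the authors' distances the highest peaks of Psma4, Psmd3 and Ube2q1 lay outside such a window, at 113 and 232 bp downstream and 437 bp upstream. All are from build GRCr8, 5′ to 3′ on the strand of the gene: chr8:64236270-64236519 (plus) for Psma4, chr10:84139688-84139937 (plus) for Psmd3, chr2:177496310-177496559 (plus) for Ube2q1 and chr20:11005061-11005310 (minus) for Ube2g2. Capitals mark matches on either strand to the GC box GGGCGG, the CCAAT box CCAAT and the ETS core CGGAAG, which are known contacts of Sp1-type factors, NF-Y and ETS factors. The deposited peaks are on rn5 and were not placed on these letters.
Psma4: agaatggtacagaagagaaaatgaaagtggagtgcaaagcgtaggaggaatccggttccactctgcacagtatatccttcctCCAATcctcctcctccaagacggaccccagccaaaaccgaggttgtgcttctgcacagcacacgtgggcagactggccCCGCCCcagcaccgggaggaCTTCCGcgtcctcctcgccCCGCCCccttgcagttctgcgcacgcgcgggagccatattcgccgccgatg
Psmd3: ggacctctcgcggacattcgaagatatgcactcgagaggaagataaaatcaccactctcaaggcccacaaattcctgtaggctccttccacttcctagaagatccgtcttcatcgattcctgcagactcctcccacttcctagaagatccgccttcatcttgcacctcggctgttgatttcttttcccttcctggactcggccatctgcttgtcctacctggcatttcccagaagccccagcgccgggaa
Ube2q1: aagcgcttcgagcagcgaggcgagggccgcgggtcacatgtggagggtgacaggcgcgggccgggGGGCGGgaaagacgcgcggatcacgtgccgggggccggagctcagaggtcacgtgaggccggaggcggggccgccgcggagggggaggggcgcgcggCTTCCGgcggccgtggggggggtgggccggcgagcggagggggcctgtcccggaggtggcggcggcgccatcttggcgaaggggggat
Ube2g2: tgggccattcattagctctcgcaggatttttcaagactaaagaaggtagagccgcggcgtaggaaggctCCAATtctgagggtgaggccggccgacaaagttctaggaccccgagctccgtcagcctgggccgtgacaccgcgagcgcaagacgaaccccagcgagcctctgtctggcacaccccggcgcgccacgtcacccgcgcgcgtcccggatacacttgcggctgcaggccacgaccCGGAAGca
Psma4 held 2 GC boxes, 1 CCAAT box and 1 ETS core, and Psmd3 none of the 3 motifs. Ube2q1 held 1 GC box and 1 ETS core, and Ube2g2 1 CCAAT box and 1 ETS core. The windows of Ube2q1 and Ube2g2 held 36 and 26 CpG dinucleotides, against 18 in Psma4 and 11 in Psmd3.

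Peaks near the start sites of these genes were listed in the α1ACT 1804 library alone. With a promoter peak taken as one that the authors place at most 1000 bp from the transcription start site (TSS), the 64 genes had 66 promoter peaks in the α1ACT 1804 library. The empty-vector 1804 list had 0 peaks within 1000 bp of these start sites, the empty-vector M2 list 0 and the α1ACT M2 list 0, which allows a share of up to 4.69% of the genes in each. The nearest peak of either empty-vector list lay 57.9 kb from the TSS of Ube2q1, and the nearest α1ACT M2 peak 319 kb from that of Psmc1. The α1ACT 1804 list held 161730 peaks and the others 81 to 272, each from 1 library, so there is no replicate error and no test between conditions. The table was built without sites of the empty-vector lists. The signal below is the authors' own value per peak, with no stated scale between libraries, and the lowest signal listed in the other libraries was 14.0, where the promoter peaks of the 64 genes had 2.05 to 13.0 in the α1ACT 1804 library. Absence from those lists is therefore no measure of the signal at these start sites in the other libraries. Read depth is unknown, and intervals and limits here cover counting error only.

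In both groups, more genes had a promoter peak than among all genes of the table. Of the proteasome genes, 25 of 39 did (64.1%, exact 95% binomial interval 47.2 to 78.8), and of the Ube2 genes 18 of 25 (72.0%, 50.6 to 87.9), against a background of 43.2% of the 14390 genes. The share of proteasome genes minus that of Ube2 genes was -7.90 percentage points (95% Newcombe interval -28.7 to 15.7), and as that interval includes 0, a difference between the groups was not detectable with this number of genes. It does not show that the groups are alike. The groups are gene lists in 1 library and genes are not replicates, so no p is given. At most 3000 bp from the TSS, 27 proteasome genes (69.2%) and 19 Ube2 genes (76.0%) had a peak, against 52.3% of all genes, and at most 500 bp 22 (56.4%) and 16 (64.0%), against 38.4%. The genes were also taken by RefSeq symbol from a RefSeq table for GRCr8, which includes genes without any assigned peak. The shares were then 26 of 51 proteasome-pattern genes (51.0%) and 19 of 35 Ube2 genes (54.3%), against 32.9% of 18539 protein-coding genes. These counts include Psme3ip1 and Ube2r2, both with a promoter peak. The authors' table names them Fam192a and LOC689226, so they are outside the groups used elsewhere here.

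**Figure D1:**
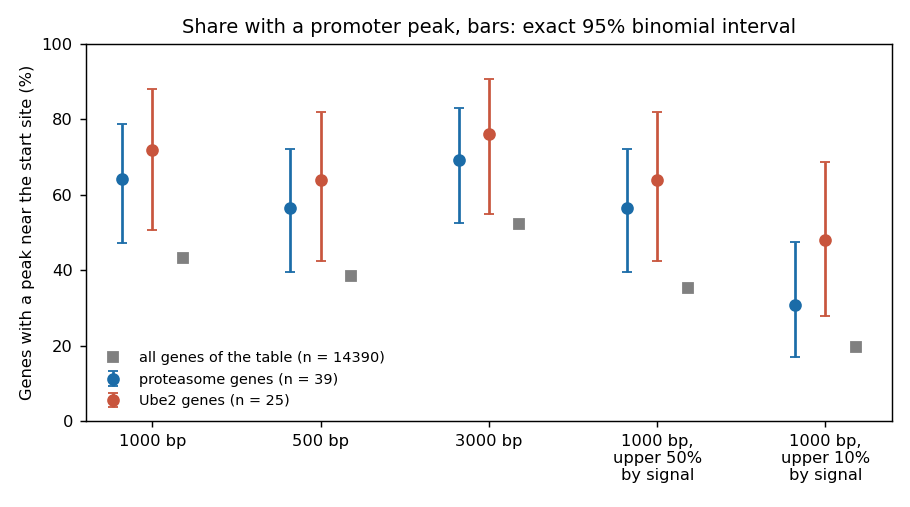
Share of genes (%, vertical axis) with a peak near the TSS for 5 definitions of such a peak (horizontal axis), in the α1ACT 1804 library. Circles are the 39 proteasome genes (blue) and 25 Ube2 genes (red) with exact 95% binomial intervals, and grey squares all 14390 genes of the table; both groups lie above the squares in each definition, and their intervals overlap each other.

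The groups stood apart in the number of peaks per promoter, a measure taken up after the peaks had been seen. Of the proteasome genes with a promoter peak, 4 of 25 had 2 or more (16.0%, 4.54 to 36.1), and of the Ube2 genes 14 of 18 (77.8%, 52.4 to 93.6), where the background was 34.9% of 6219 genes. Psma4, Psma5, Psme4 and Psmg4 were the 4 proteasome genes, with 2 each. Ube2q1 had 4 promoter peaks, and Ube2e3, Ube2g1 and Ube2s had 3 each. The further Ube2 peaks were mostly of low signal: the second-highest promoter peak lay below the table's median signal of 3.02 in 9 of the 14 Ube2 genes and in 3 of the 4 proteasome genes. Among peaks in the upper 50% by signal, 5 of 16 Ube2 genes (31.3%, 11.0 to 58.7) and 1 of 22 proteasome genes (4.55%, 0.115 to 22.8) had 2 or more. The background was 28.9% of the 5086 genes of the table with such a promoter peak. The proteasome minus Ube2 difference was -61.8 points with all promoter peaks (95% Newcombe interval -78.1 to -32.2) and -26.7 points with the upper 50% (-51.3 to -2.42). With the upper 50% the Ube2 share was thus close to this background, and the proteasome share was below it.

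**Figure D2:**
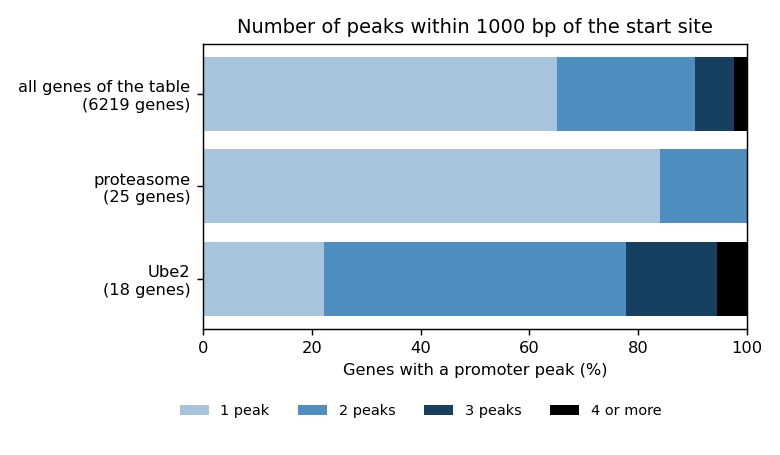
Genes with a promoter peak (%, horizontal axis) split by their number of peaks within 1000 bp of the TSS, for all 6219 such genes of the table, the 25 proteasome genes and the 18 Ube2 genes. The segments for 2 or more peaks make up 34.9%, 16.0% and 77.8%.

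The place of the highest promoter peak differed by value as well, with overlapping intervals. In 21 of the 25 proteasome genes (84.0%, 63.9 to 95.5) it lay over or downstream of the TSS, against 12 of the 18 Ube2 genes (66.7%, 41.0 to 86.7) and 68.2% of all genes with a promoter peak. In 16 proteasome genes (64.0%) it lay 50 to 350 bp downstream, in the transcribed part of the gene, against 7 Ube2 genes (38.9%) and 37.1% of all. This band was chosen after the positions were seen. The median position of all 29 proteasome promoter peaks was 145 bp downstream, and that of the 37 Ube2 promoter peaks 65 bp downstream. For genes on the plus strand, the authors' distance to peaks beside the TSS runs to the far edge of the 56 bp peak and is 55 bp longer than to the near edge. That held for 39 of the 66 peaks, and no gene gained or lost its only promoter peak by it. The band and medians above use these distances. By the near edge, the highest promoter peaks of Psma3 (3 bp), Psmg2 (28 bp), Ube2f (7 bp) and Ube2v2 (35 bp) would leave the band. That of Ube2d1, which the authors place at 402 bp, would enter it. Measured to the near edge, 1 further peak would come within 1000 bp, a peak of Ube2g1 that the authors place at 1029 bp with a signal of 3.66, and Ube2g1 would have 4 promoter peaks in place of 3.

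**Figure D3:**
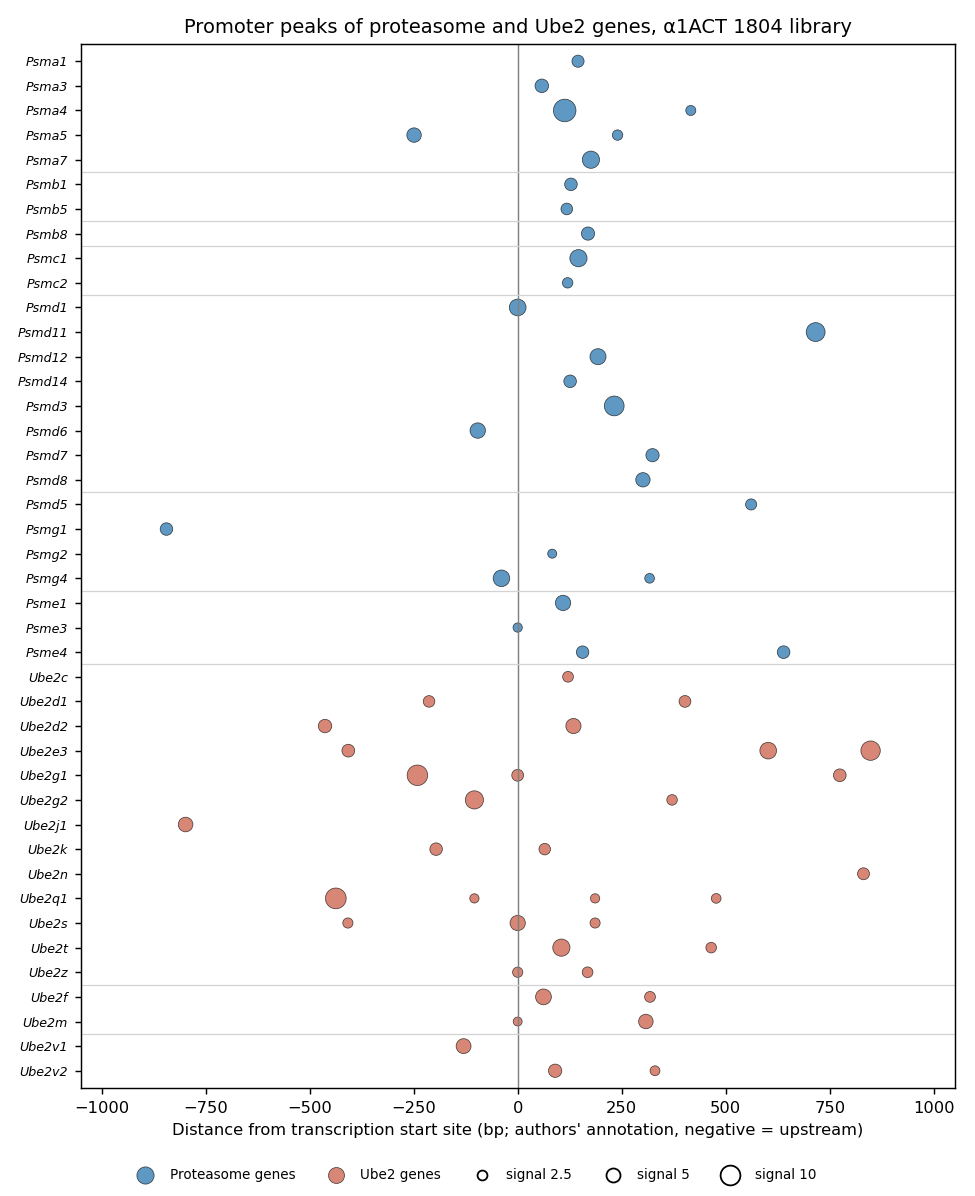
Each promoter peak of 42 genes, by distance from the TSS in bp (horizontal axis, negative upstream), 1 gene per row, rows grouped by role and divided by grey lines, circle area proportional to the signal. Proteasome peaks (blue) are mostly single and gather just right of the TSS, and Ube2 peaks (red) lie on both sides.

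Among the alpha ring subunits of the 20S core, 5 of 8 genes had a promoter peak (62.5%, 24.5 to 91.5), against 43.2% of all genes of the table. Psma4 had the promoter peak of highest signal among all 64 genes, at bases 58114673 to 58114728 of rn5 chromosome 8, which is 113 bp into the gene. Its signal of 13.0 was above 99.7% of the peaks of the table and above the highest promoter peak of 97.3% of the genes that have one. A second peak 416 bp downstream had a signal of 2.60. Psma7 followed with 7.62 on chromosome 3 from 181692419 to 181692474, Psma5 with 5.36 at 249 bp upstream, Psma3 with 4.71 and Psma1 with 3.77. The TSS of Psma7 lies 370 bp from that of Ss18l1, a gene on the other strand that has a promoter peak of its own with a signal of 10.6. Psma2, Psma6 and the testis alpha subunit Psma8 had none, and their nearest assigned peaks were 7445, 34637 and 40572 bp away. One of the 9 peaks assigned to Psma8, 89824 bp from its TSS and intergenic, had a signal of 16.1, above the promoter peak of Psma4.

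Of the constitutive beta subunits, 2 of 5 genes had a promoter peak (40.0%, 5.27 to 85.3), near the 43.2% of all genes, and of the immunoproteasome and thymus subunits 1 of 3. Psmb5, the chymotrypsin-like catalytic subunit, had 1 with a signal of 3.48, 118 bp downstream. Psmb1, a structural subunit, had 1 with 4.06, 128 bp downstream. Psmb3, Psmb4 and the trypsin-like catalytic subunit Psmb7 had none, with the nearest assigned peak 3052, 2519 and 9338 bp away. None of these 5 genes, nor the interferon-induced immunoproteasome subunits Psmb8 and Psmb9, reached the median of 4.92 that the highest promoter peak had over all genes with one. Psmb8 had a signal of 4.48, 169 bp downstream of the TSS. Psmb9 had no promoter peak of its own, but a listed peak of signal 6.27 lay 504 bp from its TSS; the authors assigned it to Tap1, the peptide transporter gene on the other strand whose TSS is 457 bp away. The thymus subunit Psmb11 had its nearest assigned peak 8663 bp from the TSS.

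In the 19S cap, 8 of the 10 non-ATPase genes and 2 of the 4 ATPase genes had a promoter peak. These shares were 80.0% (44.4 to 97.5) and 50.0% (6.76 to 93.2), the latter near the 43.2% of all genes. Psmd3 led with a signal of 10.0 on chromosome 10 from 86395729 to 86395784, 232 bp downstream of the TSS. Psmd11 had 9.13 on chromosome 10 from 67465874 to 67465929, the most distant of this class at 716 bp downstream. Psmd1, a large scaffold subunit, had 7.19 with the peak over the TSS, Psmd12 had 6.59, Psmd6 6.08, Psmd8 5.28, Psmd7 4.48 and Psmd14, the deubiquitinating subunit, 4.07. Psmd3, Psmd11, Psmd1 and Psmd8 had this 1 peak and no other assigned to them. The other large scaffold subunit Psmd2 and the ubiquitin receptor Psmd4 had no promoter peak and lay 14643 and 10105 bp from the nearest. Among the ATPases, which unfold the substrate, Psmc1 had 7.59, 146 bp downstream, and Psmc2 2.80, 120 bp downstream. Psmc4 and Psmc5 had none, with the nearest at 26761 and 5244 bp. Of the 10 genes of the cap with a promoter peak, 0 had more than 1 (exact 95% interval up to 30.8%), against 34.9% of all genes with one.

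Of the chaperones that help to assemble the particle, 4 of 6 genes had a promoter peak (66.7%, 22.3 to 95.7). That interval includes the 43.2% of all genes of the table. Psmg4, a chaperone of the core, had 7.05 at 39 bp upstream and a second peak of 2.43 at 317 bp downstream. Psmg1 had 4.02 at 844 bp upstream, the proteasome gene whose nearest peak lay closest to the 1000 bp limit on the inside, and Psmb9, with an assigned peak at 1618 bp, was the closest outside. Psmg2 had 2.10, the lowest highest-peak signal of the 43 genes. Of the chaperones of the cap, Psmd5 had 3.18 at 561 bp downstream, and Psmd9 and Psmd10 had none. The 3 listed activators, which open the core without the cap, each had a promoter peak (100%, 29.2 to 100, against the same 43.2%). They were Psme1 with 6.03, Psme4 with 4.10 and 4.01, and Psme3, the nuclear activator, with 2.23 over the TSS.

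**Figure D4:**
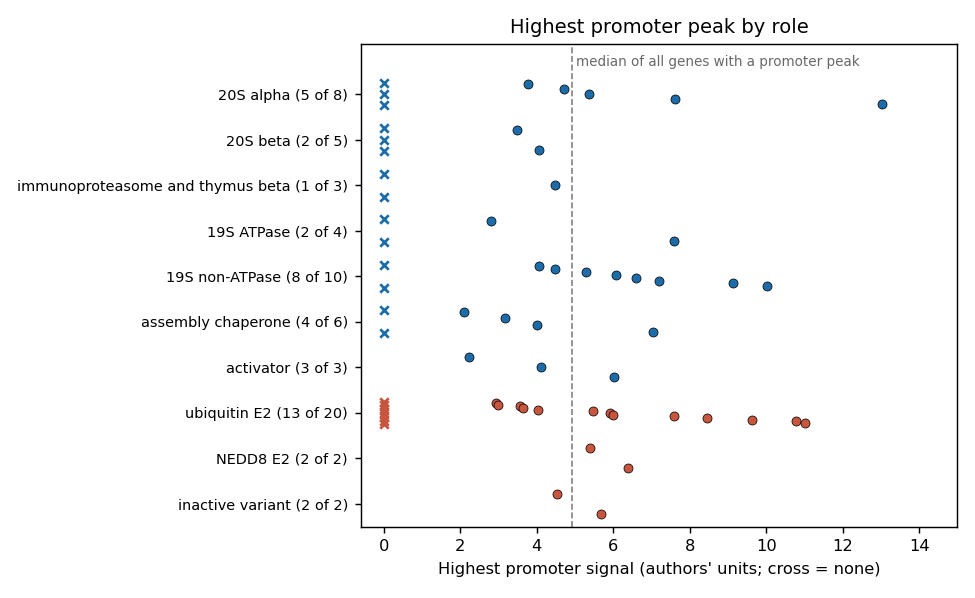
Highest promoter-peak signal in the authors' units (horizontal axis) for 63 genes by role (vertical axis, with the number of genes that have a promoter peak of all in that role), proteasome genes in blue and Ube2 genes in red, crosses at 0 for genes without one, spread vertically for legibility. The dashed line is the median of 4.92 over all genes of the table with a promoter peak; the 8 non-ATPase genes range from 4.07 to 10.0 and the beta subunits lie below the line.

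Among enzymes that conjugate ubiquitin itself, 13 of 20 genes had a promoter peak (65%, 40.8 to 84.6), against 43.2% of all genes. Ube2q1 had the highest of the Ube2 genes, a signal of 11.0 on chromosome 2 from 208528453 to 208528508, 437 bp upstream of the TSS, and its other 3 promoter peaks had 2.21, 2.22 and 2.43. Ube2g1 had 10.8 on chromosome 10 from 58911328 to 58911383, 241 bp upstream, with 3.60 over the TSS and 4.13 at 774 bp downstream. Ube2g2, an enzyme of endoplasmic reticulum quality control, had 8.46 on chromosome 20 from 13887998 to 13888053, 104 bp upstream, and 2.86 at 371 bp downstream. Ube2e3 was the only Ube2 gene with more than 1 promoter peak in the upper 10% of the table's signals, 9.62 at 848 bp and 7.11 at 602 bp downstream, besides 4.17 at 407 bp upstream. Ube2t, which serves DNA crosslink repair, had 7.58 at 105 bp downstream. It also had the highest peak of any of the 64 genes, with 18.7, in intergenic sequence 25053 bp from its TSS.

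Of the remaining ubiquitin enzymes with a promoter peak, Ube2s had 5.99 over the TSS, Ube2d2 5.91, Ube2j1, of the endoplasmic reticulum, 5.47 at 798 bp upstream, Ube2k 4.02, Ube2n 3.64, Ube2d1 3.56, Ube2c 2.98 and Ube2z 2.94. Ube2s and Ube2c are the enzymes that act with the anaphase-promoting complex in mitosis. Both of the 2 peaks of Ube2z lay within 1000 bp of the TSS. Ube2a, Ube2d4 (named Ube2d2b in RefSeq), Ube2e2, Ube2h, Ube2l3, Ube2q2l and Ube2ql1 had none. Their nearest assigned peaks lay between 1261 bp (Ube2ql1, the closest outside the limit) and 29160 bp (Ube2a) from the TSS. The highest peak assigned to Ube2l3, 8540 bp upstream, had a signal of 8.80.

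All 4 E2 genes of NEDD8 and inactive variants had a promoter peak, against 43.2% of all genes of the table. Each of these classes holds only 2 genes (100%, exact interval 15.8 to 100 in each). That interval includes the share of all genes. The E2 genes of NEDD8, the modifier that activates cullin ligases, were Ube2f, with 6.38 at 62 bp and 3.00 at 318 bp downstream, and Ube2m, with 5.40 at 308 bp downstream and 2.05 over the TSS. Ube2v1 and Ube2v2, inactive partners of Ube2n in building Lys63-linked chains, had 5.67 and 4.53.

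Over each group, the median of the highest promoter signal was 4.71 for the 25 proteasome genes (range 2.10 to 13.0) and 5.79 for the 18 Ube2 genes (2.94 to 11.0), against 4.92 for all 6219 genes with a promoter peak. In each group 12 genes were above that median. Both ranges overlapped almost entirely. In the upper 10% of the table's peaks by signal, 12 proteasome genes (30.8%, 17.0 to 47.6) and 12 Ube2 genes (48.0%, 27.8 to 68.7) had a promoter peak, against a background of 19.7%. The authors' deposited −log10 q-values of the promoter peaks had a median of 3.56 for proteasome genes and 3.34 for Ube2 genes, and a lowest value of 1.52 and 1.48.

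Over all assigned peaks, promoter peaks included, the groups had few peaks for most genes and many for a few. The median number of assigned peaks was 2 per proteasome gene (1 to 17) and 3 per Ube2 gene (1 to 46), against 4 over the table. A single peak was assigned to 14 of 39 proteasome genes and to 3 of 25 Ube2 genes, against 2818 of all 14390. The genes with the most were Psma7 with 17, Psmd7 with 12 and Psma8 with 9 in the first group, and Ube2v2 with 46, Ube2e2 with 43 and Ube2e3 with 15 in the second. Of the 46 of Ube2v2, 44 lay over 5000 bp from its TSS, and all 43 of Ube2e2 did, a gene whose transcript spans 525628 bp. The assigned peaks were in intergenic sequence in 61.0% of proteasome and 59.2% of Ube2 peaks, against 74.6% of all, and within 1000 bp of the TSS in 20.6% and 20.7%, against 5.75%.

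Ube2 promoters had more CpG than proteasome promoters by median. RefSeq windows of 250 bases were matched for 54 of the 64 genes, 33 proteasome and 21 Ube2 genes, the latter with 22 windows. The median CpG count was 14 for proteasome genes (8 to 38) and 26 for Ube2 windows (3 to 50), against 13.0 for genes of the table, and the GC content 57.2% and 68.0%, against 58.0%. When the table's genes were ranked by CpG and split into 4 classes, 4 proteasome and 14 Ube2 genes fell into the highest (22 to 56 per window). Over the table, both measures moved with CpG. From the lowest to the highest class the share with a promoter peak was 10.4%, 39.2%, 60.2% and 68.7%, and the share of those with 2 or more peaks 17.1%, 26.1%, 33.1% and 45.7%. The part of CpG content in the difference between the groups was not tested. Within the proteasome genes the median was 15.0 with a promoter peak and 12.5 without, and within the Ube2 windows 26.5 and 21.5. By number of promoter peaks it was 16.5 with 2 or more (4 windows) and 15.0 with 1 (17 windows) in proteasome genes. In Ube2 genes it was 26.0 with 2 or more (12 windows) and 32.0 with 1 (2 windows).

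**Figure D5:**
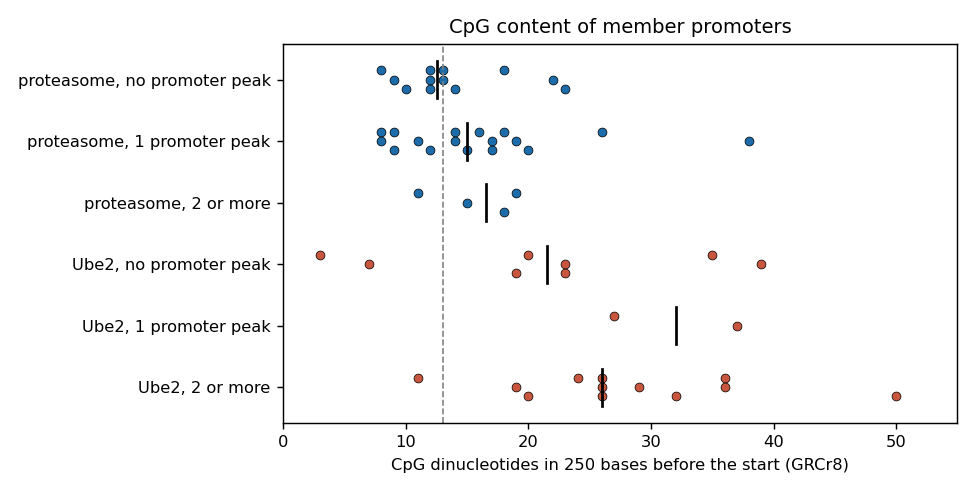
CpG dinucleotides in the 250 bases before the RefSeq start (horizontal axis, GRCr8) of each matched promoter window, by group and number of promoter peaks (vertical axis), with black bars at the medians and a dashed line at the median of 13.0 for genes of the table. Ube2 windows (red) have medians from 21.5 to 32.0 and proteasome windows (blue) from 12.5 to 16.5.

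Motif letters were shared unevenly. Each motif was searched on both strands in the same windows, and no 2 of them overlapped in these genes. The ETS core CGGAAG was in 15 of 33 proteasome windows (45.5%) and 6 of 22 Ube2 windows (27.3%), against 20.8% of windows of the table's genes and 13.9% of all 33469 windows. The GC box GGGCGG was in 69.7% and 77.3%, against 48.9% and 30.5%, and the CCAAT box in 42.4% and 31.8%, against 34.5% and 34.0%. The antioxidant response element TGACNNNGC, through which the factor NFE2L1 is known to raise proteasome genes when the proteasome is inhibited, was in 5 proteasome windows (15.2%) and 5 Ube2 windows (22.7%), against 11.7% and 10.1%. The TATA box TATAAA was in 4 (12.1%) and 2 (9.09%), near the 11.0% and 12.9% of the same backgrounds. Within the proteasome genes the ETS core was in 9 of 21 windows with a promoter peak and 6 of 12 without. Within the Ube2 genes it was in 5 of 14 and 1 of 8, and over the table's genes in 28.5% and 14.7%. These are matches of letters and not sites of a factor.

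Other genes of the pathway, taken from a list of 61, were read in the same way, and 47 of them were in the table. A promoter peak was found for 36 (76.6%), against 43.2% of all genes of the table. Among partners of the proteasome it was 14 of 15, led by Shfm1, a small cap subunit, with a signal of 9.92, the ubiquitin receptor Adrm1 with 8.84 and the assembly factor Pomp with 7.60. Among modifiers it was 5 of 6, with 8.84 at Ubb, a polyubiquitin gene, and among E2 proteins outside the symbol rule 5 of 7, with 15.0 at Tsg101. Of the E3 ligases 9 of 13 had one, led by Mdm2 with 11.3 and Stub1 with 10.0, and of the E1 genes and their relatives 3 of 6 (50.0%, near that background), led by Nae1 with 9.49.

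A RefSeq gene table for GRCr8 lists 20 further genes of these symbol patterns that the authors' table does not hold, 11 of the proteasome pattern and 9 Ube2 genes. They include the beta subunits Psmb2, Psmb6 and Psmb10, the ATPases Psmc3 and Psmc6, Psmd13, Psme2, the inhibitor Psmf1 and Psmg3, and among Ube2 genes Ube2b, Ube2d3, Ube2e1, Ube2j2, Ube2l6, Ube2o, Ube2q2 and Ube2w. Psmc3ip, which fits the pattern but is no proteasome subunit, was also among them. The table names only genes with an assigned peak, and whether its annotation held these genes is not known. For 2 of the 64 genes, Ube2n and Psmd10, the transcript in the authors' table lies on another chromosome than the gene in RefSeq. The promoter peak counted for Ube2n lay 831 bp from a start site on chromosome 1, in a transcript of 1114 bp. It may therefore not be at the Ube2n promoter. Likewise, the lack of a promoter peak for Psmd10 may not hold for the start site of the RefSeq gene. RefSeq names pseudogenes of 27 of the 64 genes, among them Ube2v1 with 17, Ube2n with 9 and Psmb3 with 7, and peaks at such genes are uncertain where reads can be shared.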

How the data were processed

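Peaks of 4 precipitated ChIP-seq libraries of PC12 cells were used, 1 library per group; the 2 inputs were not analysed here. The authors deposited 1 peak list per library, with a signal per peak and a −log10 q-value, and 1 annotated table of 159452 peaks with the distance to the TSS. The file names point to the spp caller, and its version and settings are not given here. Per the submitters' processing notes, the build was rn5; they also name BWA 0.7.5a, FastQC 0.11.2, HOMER, ChIPseeker and DiffBind, without their roles. Table peaks were joined to the α1ACT 1804 list by position, and coordinates are 1-based. Shares have exact (Clopper-Pearson) and differences Newcombe 95% intervals; limits for 0 use 3 counts. Counting was checked on simulated data. The genes, role classes and pathway list were chosen with earlier results of these data known. Genes named are the 8 highest promoter signals per group, the leaders of each role, those without a promoter peak or with several, and those with most peaks. RefSeq tables are of GRCr8. Of the genes this rule names, 1 is counted but not reported here by name. Other distances, signal limits, merged peaks and denominators were tried. Python 3.11.15, pandas 2.3.3 and scipy 1.17.1 were used.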

Additional observations from a re-analysis of the deposited data

How the results depend on the processing

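The share with a promoter peak stayed within its 95% interval for both groups under 7 of 8 alternatives each: distances of 500 and 3000 bp, the upper 50% of peaks by signal, RefSeq denominators, narrower gene sets and, chosen after seeing the data, any listed peak near the TSS and leaving out the 2 genes placed on another chromosome. In the upper 10% by signal it moved to 30.8% for proteasome and 48.0% for Ube2 genes, since fewer peaks enter. The proteasome minus Ube2 difference was negative in each setting, from -17.2 to -0.90 points, with 0 inside each interval. The share of Ube2 genes with 2 or more promoter peaks moved from 77.8% to 31.3% in the upper 50% by signal. The proteasome share fell by count from 4 genes (16.0%) to 1 (4.55%) there. When peaks closer than 200 bp were merged, the share was 66.7% for Ube2 and 16.0% for proteasome genes. The background with merging was 29.7% of all genes with a promoter peak. Median promoter signals and median peak numbers per gene stayed within 1.5 times. Leaving out Psmc3ip is counted among the proteasome alternatives but could change nothing, as it is not in the table. No paired analysis was possible because each group holds 1 library. With 1 library per group and unknown depth, no difference between conditions could be tested.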
